A study of Mus musculus with 12 samples.

Results

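The IFIT family (interferon-induced proteins with tetratricopeptide repeats) was followed in mouse small-intestinal epithelium through its 5 listed members, Ifit1, Ifit1bl1, Ifit2, Ifit3 and Ifit3b. They were chosen by name and found by their Ensembl identifiers among 48526 gene rows. RNA came from 4 female mice aged 3 months, and from each animal unselected RNA (input) and the RNA caught by J2 and by K1, 2 antibodies to double-stranded RNA, were sequenced. In 2 animals the acetyltransferase genes Kat2a and Kat2b had been deleted by tamoxifen at 100 mg/kg, injected on 4 days into the peritoneum (KAT2A/KAT2B DKO, here DKO). The 2 control animals received the ethanol and corn oil vehicle without tamoxifen. Epithelium was freed with EDTA 2 days after the last injection. The sample titles name whole intestine epithelial cells, and the extraction protocol names the proximal small intestine as their source. The promoter that drives the recombinase, and whether the controls carry the same alleles, are not given in the sources used here. DKO and tamoxifen cannot be told apart in any comparison below.

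IFIT genes are nearly silent in resting cells and are switched on by interferons, through the factor ISGF3, or by viral RNA sensing through IRF3. Both routes act at a DNA element called the interferon-stimulated response element. The proteins carry no known enzyme activity and bind RNA or other proteins through their repeats. IFIT1 grips messenger RNA whose cap lacks the ribose methyl mark of self transcripts and blocks its translation. In human cells IFIT2 and IFIT3 join it in complexes, and IFIT proteins can also bind the translation factor eIF3.

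All members lie in 1 cluster on chromosome 19 that spans 99.32 kb, chr19:34550694-34650009 in GRCm38. From its left end the cluster holds Ifit2 (ENSMUSG00000045932.12, plus strand, chr19:34550694-34576419) and Ifit3 (ENSMUSG00000074896.3, plus strand, chr19:34583531-34588731). Next come Ifit1bl1 (ENSMUSG00000079339.6, minus strand, chr19:34592891-34601956) and Ifit3b (ENSMUSG00000062488.9, plus strand, chr19:34607970-34613401). Ifit1 (ENSMUSG00000034459.8, plus strand, chr19:34640871-34650009) closes it. The cluster also holds Ifit1bl2 (ENSMUSG00000067297.4, minus strand, chr19:34617049-34640743), which is not a listed member and is given beside them for comparison. Ifit1 and Ifit1bl2 point away from each other, with annotated starts 128 bp apart.

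The sequences upstream of the members are shown because the response element is where both induction routes meet. Its core, GAAA followed by 2 bases of any kind and GAAA again (TTTC, 2 bases and TTTC on the other strand), was searched on both strands in RefSeq promoter windows of GRCm38.p6 that run from 250 bases before to 50 bases after each start. It was found in 1079 of 27025 genes (3.99%), and 72 genes (0.266%) had 2 or more matches in 1 window. Ifit1, Ifit3 and Ifit3b each had 2 matches, and Ifit1bl1 had 1 match in each of its 2 windows. Neither of the 2 Ifit2 windows held these letters. The stretches below run 5′ to 3′ in the direction of the gene, with the matches in capitals. Ifit1 is chr19:34640745-34640853 on the plus strand, Ifit3 is chr19:34583333-34583456 on the plus strand, and Ifit1bl1 is chr19:34602023-34602112 on the minus strand.
Ifit1: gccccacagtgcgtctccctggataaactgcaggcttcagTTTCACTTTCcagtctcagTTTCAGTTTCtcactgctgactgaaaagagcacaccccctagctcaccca
Ifit3: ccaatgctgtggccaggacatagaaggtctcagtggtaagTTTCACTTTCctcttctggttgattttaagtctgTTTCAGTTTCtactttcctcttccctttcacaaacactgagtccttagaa
Ifit1bl1: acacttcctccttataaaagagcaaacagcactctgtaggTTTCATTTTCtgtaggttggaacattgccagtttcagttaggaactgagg

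Ifit3b has the same 124 letters as Ifit3 at chr19:34607729-34607852, with 124 of 124 bases identical. The 2 matches of Ifit1 begin 104 and 85 bases before its RefSeq start. They are the same bases as the 2 matches of the first Ifit1bl2 window, read on the other strand 70 and 51 bases before that start. The match in Ifit1bl1 begins 104 bases before the RefSeq start used for its first window. For Ifit1 and Ifit1bl1 these RefSeq starts are not the annotated starts given with the cluster. A match describes these letters only and does not show that a factor binds there.

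Some members are hard to count apart. The annotated transcripts of Ifit3 and Ifit3b were 97.824% identical over 1700 bp, and 18.55% of the 150-base windows of Ifit3, the read length in the labels, occurred exactly in Ifit3b. Reads that fall wholly in such stretches cannot be assigned, so the split between Ifit3 and Ifit3b is uncertain. For Ifit1 the share was 1.237%, all of it with Ifit1bl2, and for Ifit2 and Ifit1bl1 it was 0. With windows of 75 bases the shares were 41.11% for Ifit3, 35.67% for Ifit3b, 5.19% for Ifit1, 1.976% for Ifit1bl1 and 0 for Ifit2. Ifit1bl1 and Ifit1bl2 transcripts were 89.005% identical. No exon of the cluster overlapped an exon of another gene, which matters because strand was not used in counting.

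Input libraries held 10307281 to 11474107 gene-assigned counts and control pulldowns 13308021 to 16139531. DKO pulldowns were shallower, J2 with 5826361 and 2691285 and K1 with 5559033 and 2220291. Reads aligned to several places were 5.54% to 8.05% of listed reads in the input and control libraries, but 15.8% and 29.5% in DKO J2 and 25.9% and 46.7% in DKO K1. Kat2b fell in DKO input by 1.51 on the log2 scale (SE 0.165, edgeR adjusted p = 6.32e-04) and Kat2a by 0.88 (SE 0.227, adjusted p = 0.0205). Values in each group come from 2 animals, and in bulk epithelium fewer cells of a type and less RNA per cell cannot be told apart.

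In input RNA the whole family was higher in DKO than in control epithelium. The 5 members together took 0.0189% and 0.00919% of gene-assigned counts in the 2 controls and 0.250% and 0.114% in the 2 DKO animals. All 5 members rose at an adjusted p under 0.05 in edgeR's quasi-likelihood test. Of all 15088 genes tested, 18.8% rose and 17.1% fell under the same rule, 35.9% in all. The median log2 fold change was 3.98 over the members and 0.00 over all genes tested. In 5 of 5 members both DKO input values lay above both control values, which held for 36.1% of all genes tested.

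Ifit2, an RNA-binding member, had the lowest level per kb of exon in control input and the largest fold change of the members. Its level was 3.02 and 1.51 CPM (counts relative to library size, scaled by TMM) in the controls and 271 and 62.5 CPM in the DKO animals. The lower DKO animal was still many times above the higher control. The log2 fold change was 6.25 (SE 0.774, adjusted p = 0.00103), and 0.365% of tested genes had a larger one.

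Ifit3, whose human counterpart stabilises IFIT1 on capped RNA, had 4.85 and 5.61 CPM in control input and 194 and 80.8 CPM in DKO input. Its log2 fold change was 4.75 (SE 0.429, adjusted p = 3.20e-04). The near-copy Ifit3b was at 4.13 and 3.17 CPM in controls and at 45.9 and 21.1 CPM in DKO animals, with a log2 fold change of 3.24 (SE 0.385, adjusted p = 8.91e-04). The ratio of Ifit3 to Ifit3b counts was 1.17 and 1.77 in control input and 4.24 and 3.82 in DKO input. The ratios did not overlap between genotypes, and the exact two-sided permutation p was 0.333, the smallest that 2 animals against 2 allow. With Ifit3 and Ifit3b counts that cannot be fully assigned, the ratio is of the counts as deposited.

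Ifit1bl1, an Ifit1-like gene of the cluster, had the highest level per kb of exon in both DKO inputs. It had 89.0 and 30.1 CPM in controls and 1302 and 525 CPM in DKO animals, a log2 fold change of 3.98 (SE 0.594, adjusted p = 0.00228). Ifit1, the cap-binding member, had 53.4 and 35.5 CPM in controls and 532 and 248 CPM in DKO animals, a log2 fold change of 3.17 (SE 0.371, adjusted p = 8.36e-04). Both were well counted in control epithelium, where Ifit1bl1 had 1120 and 418 counts and Ifit2 only 38 and 21.

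**Figure D1:**
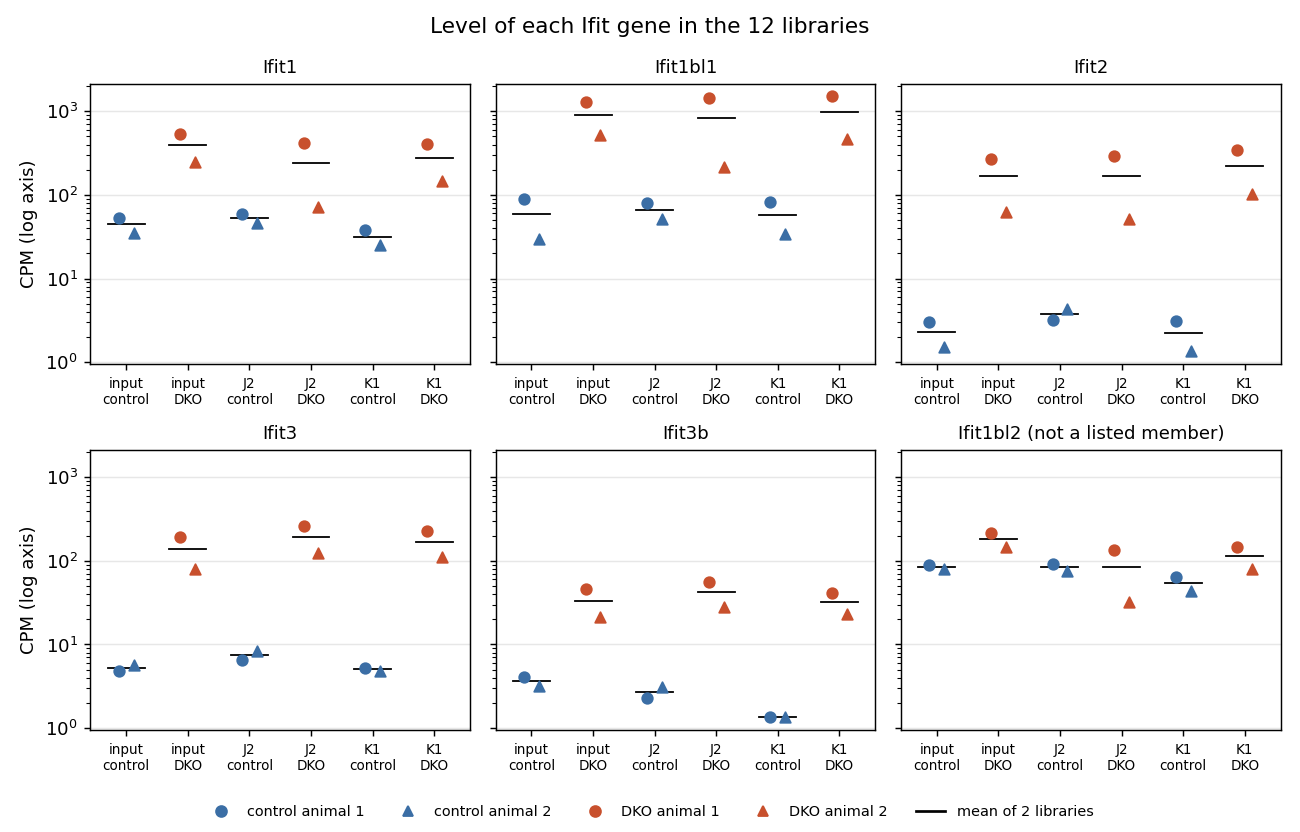
Level of each gene (CPM, log axis) in the input, J2 and K1 libraries of control animals (blue) and DKO animals (red), with circles for animal 1, triangles for animal 2 and a bar for the mean of 2 libraries. In each of the 5 members every DKO point lies above both control points of the same kind of library. Ifit1bl2, the sixth gene of the cluster, overlaps between genotypes in J2.

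The 2 DKO animals differed from each other in every member. DKO animal 1 was above DKO animal 2 in 5 of 5 members in each kind of library, by 2.15 to 4.33 times in input, 2.02 to 6.72 times in J2 and 1.77 to 3.31 times in K1. How many of all genes were higher in DKO animal 1 was not counted. Ifit2 had the widest gap in input, and Ifit1bl1 had the widest in J2. Control animals were closer for Ifit3, at 4.85 and 5.61 CPM, than for Ifit1bl1, at 89.0 and 30.1 CPM. Leaving out 1 animal, which leaves 1 library in a group, kept every member higher in DKO input. The lowest log2 fold changes were then 2.53 for Ifit1, 3.19 for Ifit1bl1, 4.85 for Ifit2, 3.99 for Ifit3 and 2.59 for Ifit3b.

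Ifit1bl2 showed a smaller change than the members around it. It had 89.7 and 79.9 CPM in control input and 215 and 148 CPM in DKO input, a log2 fold change of 1.14 (SE 0.188, adjusted p = 0.00353). The 95% interval of that value, 0.70 to 1.58, lies below that of Ifit1, 2.30 to 4.04, although the 2 genes share the stretch printed for Ifit1. The ratio of Ifit1 to Ifit1bl2 counts was 0.595 and 0.444 in control input and 2.47 and 1.68 in DKO input. The ratios did not overlap, with an exact two-sided permutation p of 0.333, the smallest possible. In the fit of all 12 libraries the Ifit1bl2 change was not called (log2 1.10, adjusted p = 0.250).

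Genes beside the cluster were read for comparison. Within 250 kb on either side lie 5 other protein-coding genes, of which 4 had enough counts to test. In DKO input 0 of these rose and 2 fell, where 18.8% of all genes rose and 17.1% fell. With 4 genes, 0 rising cannot be told from the share over all genes. Slc16a12, a creatine transporter gene, fell by 1.74 (SE 0.455, adjusted p = 0.0219), from 2.38 and 2.45 CPM to 0.333 and 1.03 CPM. Pank1, a pantothenate kinase gene of coenzyme A synthesis, fell by 1.58 (SE 0.266, adjusted p = 0.00373). Lipa, the lysosomal acid lipase gene next to Ifit2, had a log2 fold change of 0.22 (SE 0.158, adjusted p = 0.306) and Fas, a death receptor gene, 0.19 (SE 0.247, adjusted p = 0.586). Ch25h had 0 counts in the input libraries.

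**Figure D2:**
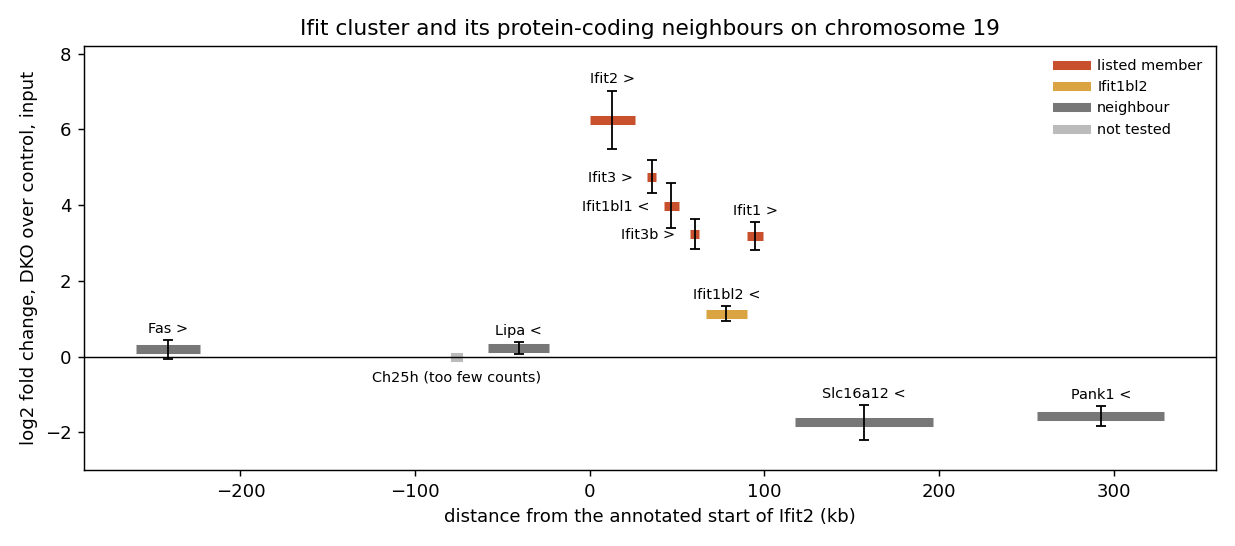
Log2 fold change in input, DKO over control, with its standard error as the error bar, against distance in kb from the annotated start of Ifit2. Bars span each gene and arrows give its strand. The 5 members (red) lie between 3.17 and 6.25, Ifit1bl2 (gold) at 1.14, and the neighbours (grey) at or under 0.22.

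The make-up of the family pool also differed between genotypes. Per kb of exon, the mean of Ifit1bl1 was highest in control input at 26.3 ± 18.4 CPM (SD, n = 2), and its 2 animals spanned Ifit1bl2 at 25.2 ± 2.05 and overlapped Ifit1 at 16.7 ± 4.77. Ifit3 at 3.00 ± 0.311, Ifit3b at 1.82 ± 0.341 and Ifit2 at 0.577 ± 0.272 CPM per kb followed, with no overlap from Ifit1 down. In DKO input the order was Ifit1bl1 at 404 ± 243, Ifit1 at 147 ± 75.7, Ifit3 at 78.8 ± 46.0, Ifit1bl2 at 53.9 ± 14.2, Ifit2 at 42.4 ± 37.5 and Ifit3b at 16.8 ± 8.74 CPM per kb. There only Ifit1bl1 stood clear of its neighbour in the order, and the others overlapped the next. As a share of the 5 members' summed CPM per kb, Ifit2 was 1.19% ± 0.0191 in control input and 5.52% ± 2.15 in DKO input. The share of Ifit1 was 36.4% ± 7.81 and 21.9% ± 2.10, and that of Ifit1bl1 51.1% ± 13.2 and 58.6% ± 0.356. These shares were described and not tested.

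Ordered by mean CPM over the 6 groups, the 3 DKO groups stood above the 3 control groups in 5 of 5 members. The share of all genes with such an order was not counted, so it is a description only. Values of neighbouring DKO groups overlapped in every member, so their order among input, J2 and K1 was not resolved. The members' values were also above control in RNA pulled down from DKO epithelium, without overlap in 5 of 5 members in both J2 and K1, as for 23.4% and 21.9% of tested genes. Not all of them passed the test. In K1 libraries 5 of 5 members rose, where 13.2% of 12888 tested genes rose, 13.9% fell and 27.1% were called in all. Ifit2 had 3.08 and 1.34 CPM in control K1 and 341 and 103 CPM in DKO K1, a log2 fold change of 6.77 (SE 0.688, adjusted p = 0.00203). Ifit3 had 5.24 and 4.84 CPM against 225 and 112 CPM, a log2 fold change of 5.23 (SE 0.381, adjusted p = 0.00168). The other 3 members had log2 fold changes of 3.27 for Ifit1, 4.22 for Ifit1bl1 and 4.74 for Ifit3b. The median over the members was 4.74, and over all tested genes it was -0.02. Ifit1bl2 was called at 1.26 (SE 0.332, adjusted p = 0.0304), but not without control animal 1 (1.55, adjusted p = 0.104), without control animal 2 (0.98, adjusted p = 0.361), with no TMM (0.87, adjusted p = 0.0609) or in the fit of all 12 libraries (1.09, adjusted p = 0.156).

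In J2 libraries 3 of 5 members rose, where 6.02% of 13181 tested genes rose and 12.2% were called in either direction. The called members were Ifit2, Ifit3 and Ifit3b. Ifit2 had 3.22 and 4.37 CPM in control J2 and 289 and 51.1 CPM in DKO J2, a log2 fold change of 5.49 (SE 0.909, adjusted p = 0.0318). Ifit3 had 6.58 and 8.41 CPM against 263 and 125 CPM, a log2 fold change of 4.73 (SE 0.502, adjusted p = 0.0287). Ifit3b had 2.26 and 3.07 CPM against 56.5 and 28.0 CPM, a log2 fold change of 4.02 (SE 0.483, adjusted p = 0.0287). For these 3 genes the lower DKO library stood many times above the higher control library.

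The cap-binding gene and its relative did not pass in J2. Ifit1bl1 had 80.4 and 51.1 CPM in control J2 and 1459 and 217 CPM in DKO J2, a log2 fold change of 3.67 (95% interval 1.19 to 6.14, adjusted p = 0.0656). Ifit1 had 59.6 and 46.2 CPM against 415 and 72.3 CPM, a log2 fold change of 2.20 (95% interval 0.20 to 4.21, adjusted p = 0.118). Without DKO animal 1 the Ifit1 value was 0.53 and without DKO animal 2 it was 3.03, and for Ifit1bl1 the values were 1.80 and 4.53. These fits hold 1 DKO library, so their spread comes from the controls alone. In both genes the groups did not overlap, but DKO animal 2 lay close to the controls for Ifit1. It lay far below DKO animal 1 for both. DESeq2, the fit with no filter on low counts and the fit of all 12 libraries each called 5 of 5 members in J2. Over all genes DESeq2 called 2884 in J2, where edgeR called 1606. The share of all genes called is not given for the other settings. Without control animal 1 only Ifit2 was called, with Ifit3 at 4.51 (adjusted p = 0.103) and Ifit3b at 3.77 (adjusted p = 0.0683). Without control animal 2 Ifit3 was at 4.85 (adjusted p = 0.0768). Ifit1bl2 had 90.4 and 76.2 CPM in control J2 and 135 and 32.3 CPM in DKO J2, which overlap, and a log2 fold change of 0.02 (95% interval -1.56 to 1.60).

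**Figure D3:**
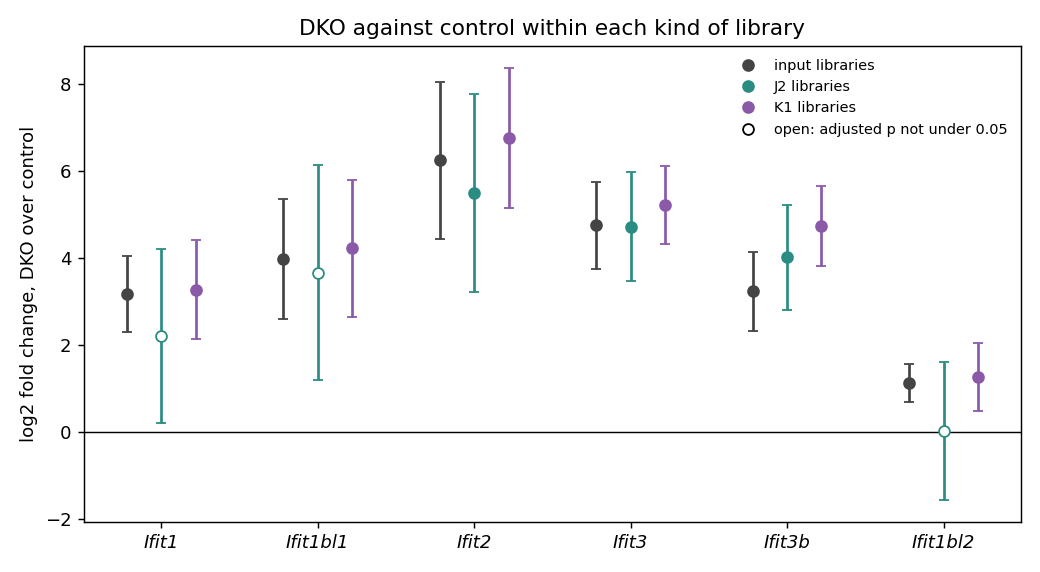
Log2 fold change, DKO over control, of each gene in input (grey), J2 (green) and K1 (purple) libraries, with 95% intervals and open symbols where the adjusted p was not under 0.05. The members lie between 2.20 and 6.77. Ifit1bl2 lies between 0.02 and 1.26, and the J2 values of Ifit1, Ifit1bl1 and Ifit1bl2 are open.

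Set against input of the same genotype in fits that did not pair the libraries of an animal, 1 member in 1 comparison was called lower and none higher. With the animal as a block, which pairs its libraries, Ifit3b in control K1 and Ifit1 in DKO K1 were called lower. No member was called in J2 under the block. The study's design asks for differential enrichment, so each pulldown was compared with input. An enrichment is the log2 ratio of pulldown to input, and these libraries carry no measure of the total RNA pulled down. In J2 against input 0 of 5 members were called in control and 0 of 5 in DKO by edgeR, where 29.8% and 25.7% of genes were called in either direction. The number of members with an unadjusted p under 0.05 was 0 in both, and DESeq2 also called 0. The median member enrichment was 0.26 in control and 0.05 in DKO, and that of all genes was -0.07 and 0.10.

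Single members still differed in how far the J2 value could lie from input. Ifit3 stood at 0.43 and 0.57 in the 2 controls and at 0.43 and 0.63 in the 2 DKO animals, as same-animal log2 CPM of pulldown minus input. All 4 animals were on the higher side, by similar amounts. The fitted values without pairing were 0.52 in control (95% interval -0.63 to 1.67) and 0.52 in DKO (-0.56 to 1.60). With the animal as a block in edgeR they were 0.52 in control (SE 0.271, adjusted p = 0.189) and 0.56 in DKO (SE 0.251, adjusted p = 0.146). Without DKO animal 2 the unpaired control value was 0.52, and without DKO animal 1 the unpaired DKO value was 0.52. Ifit2 was at 0.09 and 1.42 in controls and at 0.09 and -0.29 in DKO animals, where the high value of control animal 2 rests on 21 input counts. Ifit1bl1 ran from -0.15 and 0.76 in controls to 0.16 and -1.27 in DKO animals.

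K1 gave 1 call. Ifit3b was lower in K1 than in input of control animals, with a log2 ratio of -1.50 (SE 0.462, adjusted p = 0.0252), from 4.13 and 3.17 CPM in input to 1.36 and 1.34 CPM in K1. That was 1 of 5 members, where 20.1% of tested genes were lower and 39.8% called in either direction. The K1 values of both controls lay below both inputs. Leaving out control animal 1 (-1.32, adjusted p = 0.292) or control animal 2 (-1.65, adjusted p = 0.189) ended the call, as did the fit of all 12 libraries (-1.43, adjusted p = 0.0575). Adding the counts of Ifit3 and Ifit3b before the fit left 0 features called. With the animal as a block Ifit3b stayed called (-1.51, SE 0.298, adjusted p = 9.09e-04), where 45.8% of all genes were called.

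In DKO animals 0 of 5 members were called in K1 against input by edgeR, where 35.6% of genes were called. No member had an unadjusted p under 0.05, and DESeq2 called 0. With the animal as a block, which pairs the libraries of an animal, Ifit1 was called lower in K1 than in DKO input (-0.66, SE 0.228, adjusted p = 0.0317), where 39.8% of all genes were called under the block. The unblocked value was -0.58 (SE 0.478, adjusted p = 0.366). All 4 animals had a lower Ifit1 level in K1 than in input, at -0.50 and -0.47 in controls and -0.39 and -0.77 in DKO animals. Ifit1bl2 stood at -0.50 and -0.86 in controls and -0.54 and -0.87 in DKO animals. Its blocked values were -0.76 (adjusted p = 0.00965) in control, where 45.8% of all genes were called under the block, and -0.78 (adjusted p = 0.0111) in DKO, against unblocked adjusted p-values of 0.0874 and 0.0919.

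**Figure D4:**
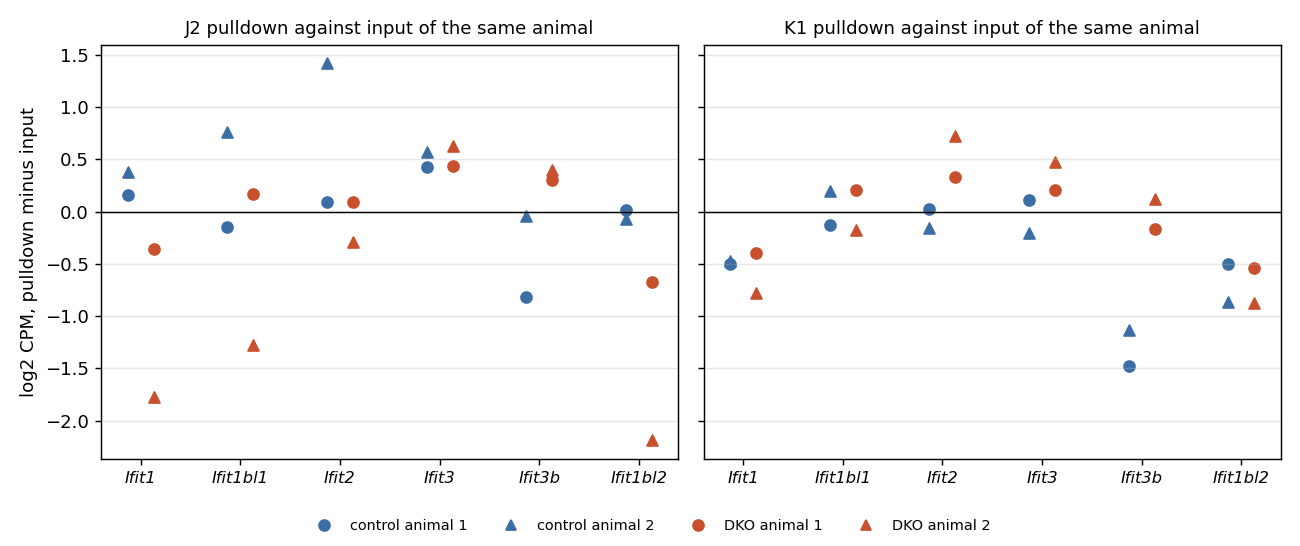
Same-animal log2 CPM of pulldown minus input for J2 (left) and K1 (right), with control animals in blue, DKO animals in red, circles for animal 1 and triangles for animal 2. Ifit3 lies above 0 in all 4 animals in J2. Ifit1 and Ifit1bl2 lie below 0 in all 4 animals in K1, and Ifit3b lies at -1.48 and -1.13 in the controls.

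Whether enrichment itself differed between genotypes was tested as an interaction. For J2, 0 of 5 members were called by edgeR, where 2.71% of genes were called, with 0 members at an unadjusted p under 0.05 and 0 called by DESeq2. The 5 differences, DKO minus control, ran from -0.91 for Ifit1 (95% interval -3.23 to 1.41) to 0.82 for Ifit3b (-0.70 to 2.33). For K1, 0 of 5 were called, where 5.47% of genes were called, with 1 member at an unadjusted p under 0.05 and 0 called by DESeq2. That member was Ifit3b, with a difference of 1.38 (SE 0.587, adjusted p = 0.189), from -1.48 and -1.13 in controls to -0.17 and 0.12 in DKO animals. With the animal as a block it was called (1.39, SE 0.370, adjusted p = 0.0249), as were 12% of all genes. The other 4 K1 differences ran from -0.01 for Ifit1 (95% interval -1.53 to 1.50) to 0.42 for Ifit2 (-1.96 to 2.80). The control side of the Ifit3b value rests on 22 and 18 K1 counts, and part of its reads cannot be told from those of Ifit3.

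The 2 antibodies were also compared with each other within a genotype. In J2 against K1, 0 of 5 members were called in control and 0 of 5 in DKO by edgeR, and 0% of 14285 tested genes were called in either. Unadjusted p-values under 0.05 were found for 0 members in both, 1808 genes in control and 530 in DKO. DESeq2 called 0 members, 316 genes in control and 3 in DKO. With the animal as a block, Ifit1 (0.79, adjusted p = 0.0337) and Ifit3b (0.99, adjusted p = 0.0286) were higher in J2 than in K1 of control animals, and 27.7% of all genes were called in that blocked fit. Without the block the values were 0.78 (95% interval -0.96 to 2.51) and 1.01 (-0.05 to 2.07).

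Genes that act around the IFIT proteins were read from the same fits. Of 6 interferon genes (Ifnb1, Ifnk, Ifne, Ifnl2, Ifnl3 and Ifng), 1 had enough input counts to test. The Ifna genes were not on this list and were not read. Ifnk, an epithelial type I interferon gene, fell by 1.12 (SE 0.357, adjusted p = 0.0438), from 1.99 and 2.37 CPM to 0.749 and 1.17 CPM. That call was lost without control animal 1, without control animal 2 and without DKO animal 1. Ifnb1 had 0 counts in every library, which allows up to 3 counts in each. Ifnl3, a lambda interferon gene, had 3 and 0 counts in control input and 2 and 0 in DKO input.

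Genes that receive and relay interferon were higher in part. Of 12 receptor and signalling genes 7 rose and 0 fell in DKO input, where 18.8% of all genes rose and 17.1% fell. Stat2, a subunit of ISGF3, rose by 2.18 (SE 0.203, adjusted p = 3.49e-04), from 55.2 and 40.4 CPM to 242 and 181 CPM. Jak1, a kinase of the interferon receptors, rose by 0.59 (SE 0.133, adjusted p = 0.0122). Ifngr2 and Jak2, the 2 of highest mean CPM on the list, were not called. Their log2 fold changes were -0.24 (SE 0.128, adjusted p = 0.182) and 0.23 (SE 0.140, adjusted p = 0.245). The list's median log2 fold change was 0.63, against 0.00 over all genes.

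Sensor and induction genes moved in both directions. In DKO input 9 of 13 rose and 1 fell, with a median of 0.95, where 18.8% of all genes rose and 17.1% fell. Dhx58, which encodes the RNA helicase LGP2, rose by 3.60 (SE 0.251, adjusted p = 1.40e-04), from 8.02 and 6.62 CPM to 106 and 66.2 CPM. Irf7, a factor that amplifies interferon induction, rose by 2.74 (SE 0.166, adjusted p = 8.26e-05). Ifih1, the sensor MDA5 of long double-stranded RNA, rose by 2.00 (SE 0.228, adjusted p = 7.44e-04). Mavs, the adaptor that MDA5 signals through, fell by 0.98 (SE 0.209, adjusted p = 0.00968), from 96.3 and 87.5 CPM to 34.9 and 55.3 CPM.

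All 3 feedback genes rose in input, J2 and K1, but in J2 none was called without control animal 1 or without control animal 2. Over all tested genes 18.8% rose in input, 6.02% in J2 and 13.2% in K1. Usp18, which restrains signalling at the interferon receptor, rose by 4.04 in input (SE 0.457, adjusted p = 7.25e-04), from 15.7 and 7.70 CPM to 259 and 115 CPM. The cytokine signalling suppressor genes Socs3 and Socs1 rose by 2.59 (SE 0.196) and 2.51 (SE 0.214). Of the 5 genes that build or modify messenger RNA caps, 2 rose in input and 0 fell, beside 18.8% and 17.1% of all genes. They were Cmtr1 (1.22, SE 0.267, adjusted p = 0.0107) and Cmtr2 (0.81, SE 0.236, adjusted p = 0.0324), which place the ribose methyl marks that IFIT1 reads. Pcif1 (-0.18, adjusted p = 0.360) and Rnmt (0.02, adjusted p = 0.924), the 2 of highest mean CPM, were not called. Leaving out 1 animal gave 0 to 2 called, 0 without control animal 2 and 1 without control animal 1 or DKO animal 2. In J2 none of the 5 was called, and in K1 none rose and Ramac, a subunit of the cap guanine methyltransferase named after its value was seen, fell by 1.56 (adjusted p = 0.0325). Of 14 genes for subunits of eIF3, 13 were tested, 0 rose and 2 fell in input, Eif3f by 0.47 and Eif3l by 0.52, where 17.1% of all genes fell. Eif3b (-0.06, adjusted p = 0.776) and Eif3a (-0.19, adjusted p = 0.349), the 2 of highest mean CPM, were not called. The number called fell without control animal 1, control animal 2 or DKO animal 1 and grew without DKO animal 2. Each of these fits has 1 library in a group.

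The same lists were read in the pulldowns. In K1, where 13.2% of genes rose and 13.9% fell, 4 of 12 receptor and signalling genes rose and 2 fell, and 9 of 13 sensor and induction genes rose and 2 fell. Without control animal 1 the K1 calls were 1 and 3, and without control animal 2 they were 2 and 2. In J2, where 6.02% of genes rose, 2 of 12 receptor and signalling genes rose and 0 fell, and 3 of 13 sensor and induction genes rose and 1 fell. The J2 calls of both lists fell when either control animal was left out and grew in number when either DKO animal was left out. Without a DKO animal the spread comes from the controls alone, so that growth carries no DKO variation.

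The similarly named Ifitm genes encode unrelated transmembrane proteins that hinder virus entry. Of 7 such genes 2 could be tested in input. Ifitm3 rose by 2.64 (SE 0.261, adjusted p = 4.24e-04), from 34.3 and 19.8 CPM to 144 and 184 CPM, and here DKO animal 2 was the higher one. Ifitm2 fell by 0.83 (SE 0.234, adjusted p = 0.0286).

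Marker genes were summed to see what else moved with the family. The 8 epithelial markers summed to 6626 to 6810 CPM in control input and 6001 to 7238 CPM in DKO input, with none at 0. Of these 8, Krt18 rose in input by 1.32 (SE 0.130, adjusted p = 4.20e-04) and none fell. The epithelial sums of the DKO animals lay far apart in pulldowns. They were 3894 to 12778.5 CPM in DKO J2 against 4879 to 5190 in control, and 6691 to 14584 in DKO K1 against 7536 to 9159. The 12 leukocyte markers summed to 77.5 to 94.4 CPM in control input and 54.4 to 59.4 CPM in DKO input. There 5 of 8 tested fell and 1, Csf1r, rose, beside 17.1% and 18.8% of all genes. In pulldowns the leukocyte sums were higher in DKO, at 68.5 to 100.3 CPM in J2 against 60.6 to 64.0 in control, and at 65.0 to 65.1 in K1 against 48.6 to 53.1. Of the 8 tested in K1, 3 rose, where 13.2% of all genes rose. These were Csf1r by 3.62 and, named after their values were seen, Adgre1 by 3.23 and Itgax by 1.74. The other 5 were not called and ran from -1.83 for Cd3g to 0.48 for Cd8a. In input Itgax was called lower, at -0.85. The 7 fibroblast and endothelial markers summed to 3.18 to 5.90 and 3.96 to 6.99 CPM in input. In pulldowns this sum too was higher in DKO, at 34.5 to 176 CPM in J2 against 5.42 to 20.5 in control, and at 81.4 to 207 in K1 against 4.19 to 40.7. Cdh5 was at 0 in both libraries of control J2 and of DKO J2, and Siglech in both of DKO K1. The part of these markers, and of the reads aligned to several places, in the pulldown values was not tested.

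Across the 12 libraries the members followed each other closely. The Pearson correlation of each member's log2 CPM with the mean of the other 4 was 0.946 for Ifit1, 0.972 for Ifit1bl1, 0.995 for Ifit2, 0.974 for Ifit3 and 0.967 for Ifit3b. The 12 points share 4 animals, and most of their spread is the gap between genotypes. Among 9368 ranked genes the 5 most like the members' mean were Gbp9 (r = 0.992), Spats2l (0.990), Usp18 (0.990), Gcnt3 (0.988) and Icam1 (0.988). Gbp9 encodes a guanylate-binding protein, Gcnt3 a glycosyltransferase of mucin glycans, and Icam1 a cell adhesion molecule. In input their log2 fold changes were 3.39 (SE 0.382), 3.46 (SE 0.306), 4.04 (SE 0.457), 2.99 (SE 0.159) and 4.21 (SE 0.377) in that order.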

How the data were processed

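RNA of 4 mice was measured in 12 libraries: input, J2 and K1 from each of 2 control and 2 DKO animals. Per the labels' protocols, ribosomal RNA was depleted, priming used random hexamers and libraries carried molecular identifiers. The deposited values are whole-number counts per gene, made without strand per the labels. The submitters' processing notes list STAR 2.7.10b, UMI-tools 1.1.4, HTSeq 2.0.2, DESeq2 1.40.1 and edgeR 3.42.2 and the builds mm10 and GRCm38.p4, with no roles, and the annotation is not given in the sources used here. Whether copies were removed by identifiers is not stated for these counts. Reads outside genes, ambiguous reads (3.65% to 6.11% of listed reads) and reads aligned to several places stayed out of library sizes and tests.

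Identifiers were matched without version to GENCODE M21 (48058 of 48526). Tests ran over all genes with the quasi-likelihood method of edgeR 4.0.16 (R 4.3.3), after TMM scaling and filterByExpr at a minimum of 10 counts, and calls needed a Benjamini-Hochberg adjusted p under 0.05. Genotypes were compared in fits of the 4 libraries of a kind, and enrichment in fits of the 8 libraries of an antibody and input, or of both antibodies. DESeq2 1.42.0 was an alternative. Standard errors are the log2 fold change divided by the square root of F. CPM used TMM factors of all 12 libraries, so a fold change need not equal the ratio of the printed CPM, and log2 CPM in correlations and same-animal differences used a prior count of 2. Transcripts were compared with blastn 2.17.0, and promoters came from RefSeq tables. The fits were tested on simulated data.

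Libraries of an animal carry 1 animal code in the labels, and their deviations from group means correlated at r = 0.208 to 0.494, so the animal pairs them. Equal numbers of control and DKO animals are different animals. Replicates were different libraries, with a chi-square per degree of freedom of 11.0 or higher. It was 96.0 in DKO J2 and 49.1 in DKO K1, and 11.0 to 25.3 in the other groups. The log2 CPM of the 2 libraries of a group correlated at r = 0.901 in DKO J2 and 0.929 in DKO K1. In the other groups r was 0.984 to 0.990. The members and gene lists were chosen with earlier results of these data known. Named genes are the members, Ifit1bl2 and protein-coding neighbours within 250 kb. The 5 genes most like the members' mean (mean of at least 50 counts) are also named. Per list, the rule picks the called genes of largest and smallest change and the 2 of highest mean CPM. For the marker lists not all genes so picked are printed.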

Additional observations from a re-analysis of the deposited data

Results flagged for a closer look

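For 2 members the J2 pulldown lay on opposite sides of input in the 2 genotypes, in every animal. They were picked from these values, and the share of all genes that split in this way was not counted. The split is therefore a description only, and it depends on the scaling. With no TMM the fitted J2 value was -0.12 for Ifit1 in control and -0.051 for Ifit3b in DKO. Each gene then had 1 sign in both genotypes. Ifit1 was higher in J2 than in input in both controls, by 0.16 and 0.38 on the log2 scale, and lower in both DKO animals, at -0.36 and -1.77. The difference, DKO minus control, was -0.91 (SE 1.01, edgeR adjusted p = 0.600), so the test of the difference did not pass. Without DKO animal 1 the difference was -2.02, with 1 DKO animal left.

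Ifit3b went the other way, at -0.82 and -0.04 in controls and 0.30 and 0.40 in DKO animals. Its difference was 0.82 (SE 0.662, edgeR adjusted p = 0.462) and did not pass either. The control J2 values rest on 33 and 38 counts.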

How the results depend on the processing

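All 5 members were called higher in DKO in input and in K1 under every setting run, apart from the setting that adds Ifit3 and Ifit3b, which leaves 4 features. In J2 the number called was 5 with DESeq2, with no filter on low counts and in the fit of all 12 libraries. DESeq2 also called more of all genes in J2, 2884 against 1606 in edgeR. Leaving out 1 animal gave 1 to 5 called in J2, 1 without control animal 1. The same step gave 0 to 1 in J2 against input for control, 0 to 2 for DKO, and 0 to 1 in K1 against input for control. It gave 0 to 1 in the J2 difference, 0 to 1 in the K1 difference and 0 to 3 in J2 against K1 for control. A lone library left in a group was assumed to vary like the other groups. K1 against input in control had 0 called in the fit of all 12 libraries and with Ifit3 and Ifit3b added. The K1 difference had 1 called with no filter, which was Ifit3b.

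With the animal as a replicate block, 1 member was called in K1 against input in DKO, 1 in the K1 difference and 2 in J2 against K1 for control, and no other count of members changed among the comparisons of libraries of the same animal. For DKO against control the block is a number shared by different animals, with r of -0.097 to 0.026 between them, and it moved the J2 count to 4 members.

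The remaining reversals were of values not called in the main result. With DESeq2 size factors, Ifit2 in J2 against input for DKO was -0.034, and the K1 difference was 0.13 for Ifit1 and 0.15 for Ifit1bl2, and DESeq2 itself gave -0.036, 0.13 and 0.15. With no TMM, J2 against input was -0.12 for Ifit1 and -0.23 for Ifit1bl1 in control, and -0.50 for Ifit2 and -0.051 for Ifit3b in DKO. K1 against input in DKO was then -0.34 for Ifit1bl1, -0.0038 for Ifit2 and -0.11 for Ifit3, the K1 difference of Ifit1bl1 was -0.0018, and Ifit1bl2 in DKO against control J2 was -0.26. With no filter these were -0.092 for Ifit1bl2 in DKO against control J2, 0.041 for Ifit1bl2 in J2 against input for control, -0.18 for Ifit2 in J2 against input for DKO, and 0.0033 for Ifit1 and 0.019 for Ifit1bl2 in the K1 difference. With the replicate block they were -0.25 for Ifit1bl2 in DKO against control J2, -0.067 for Ifit2 in J2 and -0.063 for Ifit1bl1 in K1 against input for DKO, 0.042 for Ifit3 in the J2 difference and -0.015 for Ifit1bl1 in the K1 difference. Adding Ifit3 and Ifit3b gave a J2 difference of 0.29.

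Leaving out 1 animal gave -1.29 to 0.76 for Ifit1bl2 in DKO against control J2, lowest without DKO animal 1 and highest without DKO animal 2. In J2 against input for DKO the ranges were -1.38 to 0.19 for Ifit1bl1 and -0.40 to 0.12 for Ifit2, and for control -0.12 to 0.78 for Ifit1bl1 and -0.15 to 0.037 for Ifit1bl2. In K1 against input they were -0.33 to 0.12 for Ifit1bl1 in DKO, and -0.18 to 0.11 for Ifit1bl1 and -0.30 to 0.057 for Ifit3 in control. In the J2 difference they were -1.41 to 0.029 for Ifit1bl1 and -0.10 to 0.13 for Ifit3. In the K1 difference they were -0.35 to 0.076 for Ifit1, -0.21 to 0.22 for Ifit1bl1 and -0.28 to 0.19 for Ifit1bl2, and Ifit1 in J2 against K1 for DKO ran from -1.01 to 0.037. The cause of these changes was not tested. Control pulldowns held as few as 18 counts of Ifit3b, and DKO pulldowns had the lowest totals.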
